A study of Mus musculus with 12 samples.

Results

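Transsulfuration and creatine synthesis are linked through the methionine cycle, and 9 genes of these pathways (Mat2a, Ahcy, Cbs, Cth, Mpst, Cdo1, Csad, Gatm and Gamt) were followed in the kidneys of mice with X-linked Alport syndrome fed fisetin. They were taken from the 55487 genes of the deposited table by symbol, and all 9 were found once and passed the filter on low counts. They were chosen by a list of symbols that was drawn up with the measured fold changes between the diets in view, so that difference is given below as a description. Counts of the 9 genes called by a test stand beside the share of all genes called, and nothing is read from them. The libraries came from whole kidneys of male mice of the B6 background, 30 weeks old, with the X-linked collagen gene Col4a5 named in the sample labels. In the fisetin group (n = 6) the diet held fisetin, a plant flavonol, at 500 ppm, and the control group (n = 6) received a control diet; both groups carried the disease, and each of the 2 batches in the labels held 3 libraries of each diet. The labels give the genotype of every mouse as HET although males carry a single X chromosome, and they leave unsaid whether every library is a separate animal, so the spread between libraries may be partly technical. The study's title points to mTOR signalling as a modifier of the disease, and the comparison of diets asked what fisetin did to the diseased kidney.

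Methionine is turned into S-adenosylmethionine, the methyl donor of most methylation reactions, and what is left after the methyl group is given away is hydrolysed to homocysteine. Transsulfuration moves the sulfur of homocysteine to cysteine, from which the cell makes glutathione, taurine and hydrogen sulfide. Creatine synthesis draws on the same methyl donor. Its opening step is known to be active in the proximal tubule of the kidney, while the methylation that completes creatine is known mainly from the liver.

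Total counts per library ran from 16310197 to 24451812 in the fisetin group and from 18638741 to 22396868 in the control group. Col4a5 was counted in every library, at 18.8 to 25.6 CPM (counts scaled to the size of the library) with fisetin and 22.03 to 24.05 CPM with the control diet. Libraries are named by diet and a number that carries no pairing, and some stood apart. Fisetin 5 held messages of liver: Alb, the albumin gene, reached 737.2 CPM there against 1.58 to 5.48 CPM in the other 11 libraries, and Cps1, a urea cycle gene of the liver, reached 39.9 CPM against at most 0.240 CPM. Fisetin 6 had the highest summed level of proximal tubule markers and the lowest of leukocyte markers in its group, and 9 of the 9 genes were below the control median in fisetin 1, 2 and 4 but 3 of 9 were in fisetin 6. Among the controls, control 1 was lowest or next to lowest for 9 of 9 genes and control 5 for 8 of 9. In whole-kidney RNA fewer cells of a type and less RNA per cell cannot be told apart.

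Levels per length, in TPM (abundance scaled to transcript length and library size), placed the 9 genes over about an order of magnitude. Mat2a was highest by its median over the 12 libraries at 100.8 TPM, followed by Csad at 90.5, Gatm at 86.6, Ahcy at 61.1, Cdo1 at 52.8, Cth at 37.5, Mpst at 26.9, Cbs at 26.3 and Gamt at 9.6 TPM. Several steps of that order held in every library: Gatm lay above Ahcy, Cdo1 above Cth, Cth above Mpst and Cbs above Gamt in 12 of 12. Other steps did not hold in every library. Csad lay above Gatm in 4 of 6 fisetin and 2 of 6 control libraries, and Mpst above Cbs in 5 of 6 fisetin libraries but 1 of 6 control libraries. Ahcy exceeded Cdo1 in 3 of 6 fisetin libraries and 6 of 6 control libraries. Gamt was thus the scarcest message of the set, with 112 to 244 counts per library, whereas Gatm, which encodes the enzyme before it in creatine synthesis, had 3494 to 10875.

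Mat2a and Ahcy belong to the methionine cycle. Mat2a (chromosome 6, 72432799 to 72439558, GRCm38) encodes the methionine adenosyltransferase that makes S-adenosylmethionine outside the liver. It had 248.4 CPM at the lowest, a median of 312.9 and 372.6 at the highest with fisetin, against 261.3, 332.7 and 369.8 CPM with the control diet. The ranges overlapped almost entirely, and the log2 fold change of fisetin over control was -0.090 ± 0.11 (SE), with -0.0010 in batch 1 and -0.17 in batch 2. It moved with single libraries, to -0.033 without fisetin 5, -0.036 without fisetin 1 and -0.059 without control 6, and to -0.17 without fisetin 3 and -0.14 without control 1. Ahcy (chromosome 2, 155059310 to 155074497) encodes the hydrolase that releases homocysteine and adenosine from S-adenosylhomocysteine. Its lowest, median and highest levels were 133.7, 172.7 and 264.8 CPM with fisetin and 160.2, 226.4 and 283.5 CPM with the control diet. In 3 of 6 fisetin libraries Ahcy was under the lowest control library, and fisetin 6 was the highest of its group. The log2 fold change was -0.32 ± 0.16, and it was alike in the batches, at -0.32 in batch 1 and -0.32 in batch 2.

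Cbs had the largest difference between diets among the 9 genes. It encodes cystathionine beta-synthase, which joins homocysteine to serine and so commits the sulfur to transsulfuration, and it lies on chromosome 17 (31608894 to 31637238). With fisetin Cbs was at 25.3 CPM at the lowest, 43.9 at the median and 98.9 at the highest, against 59.0, 93.0 and 118.4 CPM with the control diet. All but fisetin 3 and 6 were below every control library, fisetin 3 was just above control 1, and fisetin 6 lay within the control range. The mean was 49.8 ± 27.7 CPM with fisetin and 91.4 ± 21.9 CPM with the control diet (mean ± SD, n = 6 per diet), which is 0.540 of the control level in the fit, a log2 fold change of -0.89 ± 0.31 (SE). It stood at -0.998 in batch 1 and -0.78 in batch 2. Leaving out fisetin 6 made it -1.17 and leaving out fisetin 5, the library with liver messages, made it -0.74.

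Cth and Mpst act after Cbs. Cth (chromosome 3, 157894248 to 157925077) encodes cystathionine gamma-lyase, which frees cysteine from cystathionine and can also release hydrogen sulfide. It ran from 61.7 CPM through a median of 71.7 to 99.3 CPM with fisetin, and from 65.7 through 94.4 to 108.3 CPM with the control diet. Only 2 of 6 fisetin libraries were under the lowest control, which was control 1. The log2 fold change was -0.28 ± 0.13 (SE), -0.23 in batch 1 and -0.32 in batch 2. Mpst (chromosome 15, 78406416 to 78414013) encodes mercaptopyruvate sulfurtransferase, which passes sulfur on from a product of cysteine and is another source of hydrogen sulfide. Its lowest, median and highest levels were 28.9, 35.4 and 38.6 CPM with fisetin, against 35.7, 44.5 and 49.3 CPM with the control diet. Every fisetin library was below the control median and 3 of 6 were below the lowest control. At -0.30 ± 0.10 its log2 fold change varied little, from -0.29 in batch 1 to -0.31 in batch 2.

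Cdo1 and Csad lead from cysteine to taurine, an osmolyte of the kidney. Cdo1 (chromosome 18, 46713193 to 46728395) encodes cysteine dioxygenase, which oxidises cysteine to cysteine sulfinate. It spanned 78.4 to 115.5 CPM around a median of 92.7 with fisetin and 86.0 to 115.1 CPM around a median of 107.9 with the control diet, so that the groups overlapped over most of their range. The highest fisetin value was that of fisetin 5. The log2 fold change was -0.13 ± 0.10 (SE), -0.16 in batch 1 and -0.10 in batch 2, and it was -0.21 without fisetin 5 and -0.085 without fisetin 4. Csad (chromosome 15, 102176999 to 102204724) encodes cysteine sulfinate decarboxylase, which makes hypotaurine from the product of Cdo1. It had 115.7 CPM at the lowest, 155.0 at the median and 213.9 at the highest with fisetin, and 143.4, 196.9 and 243.1 CPM with the control diet. In 3 of 6 fisetin libraries Csad was below every control, and fisetin 3, 4 and 6 lay within the control range. Its log2 fold change was -0.31 ± 0.16, with -0.20 in batch 1 and -0.41 in batch 2. Csad overlaps Zfp740 on the opposite strand, a gene with up to 1921 counts per library. Whether strand was used in the counting is not stated, so the level of Csad is uncertain. Mat2a and Ahcy overlap scarcer genes on the opposite strand, Particl (at most 61 counts) and Gm45609 (at most 1 count). Cth overlaps Gm43314 (at most 40 counts) on the same strand.

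Gatm and Gamt make creatine. Gatm (chromosome 2, 122594467 to 122611303) encodes the mitochondrial amidinotransferase that forms guanidinoacetate from arginine and glycine. With fisetin its levels were 203.0 CPM at the lowest, 243.0 at the median and 592.7 at the highest, against 238.6, 355.8 and 451.6 CPM with the control diet. The highest library of all 12 was fisetin 6, while the other fisetin libraries lay at or under 279.9 CPM. The mean was 294.6 ± 149.0 CPM with fisetin and 348.5 ± 90.7 CPM with the control diet (mean ± SD, n = 6 per diet), and the log2 fold change of -0.27 ± 0.27 (SE) was about the size of its error. It was -0.51 in batch 1 and -0.023 in batch 2, the batch that holds fisetin 6. It became -0.57 without fisetin 6, -0.17 without fisetin 5 and -0.13 without control 3. Gamt (chromosome 10, 80258151 to 80261012) encodes the methyltransferase that turns guanidinoacetate into creatine. It had 6.51 CPM at the lowest, 8.92 at the median and 10.8 at the highest with fisetin, against 9.69, 11.1 and 13.1 CPM with the control diet. All fisetin libraries but fisetin 3 were below the lowest control library, and the log2 fold change was -0.33 ± 0.12, with -0.19 in batch 1 and -0.47 in batch 2.

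**Figure D1:**
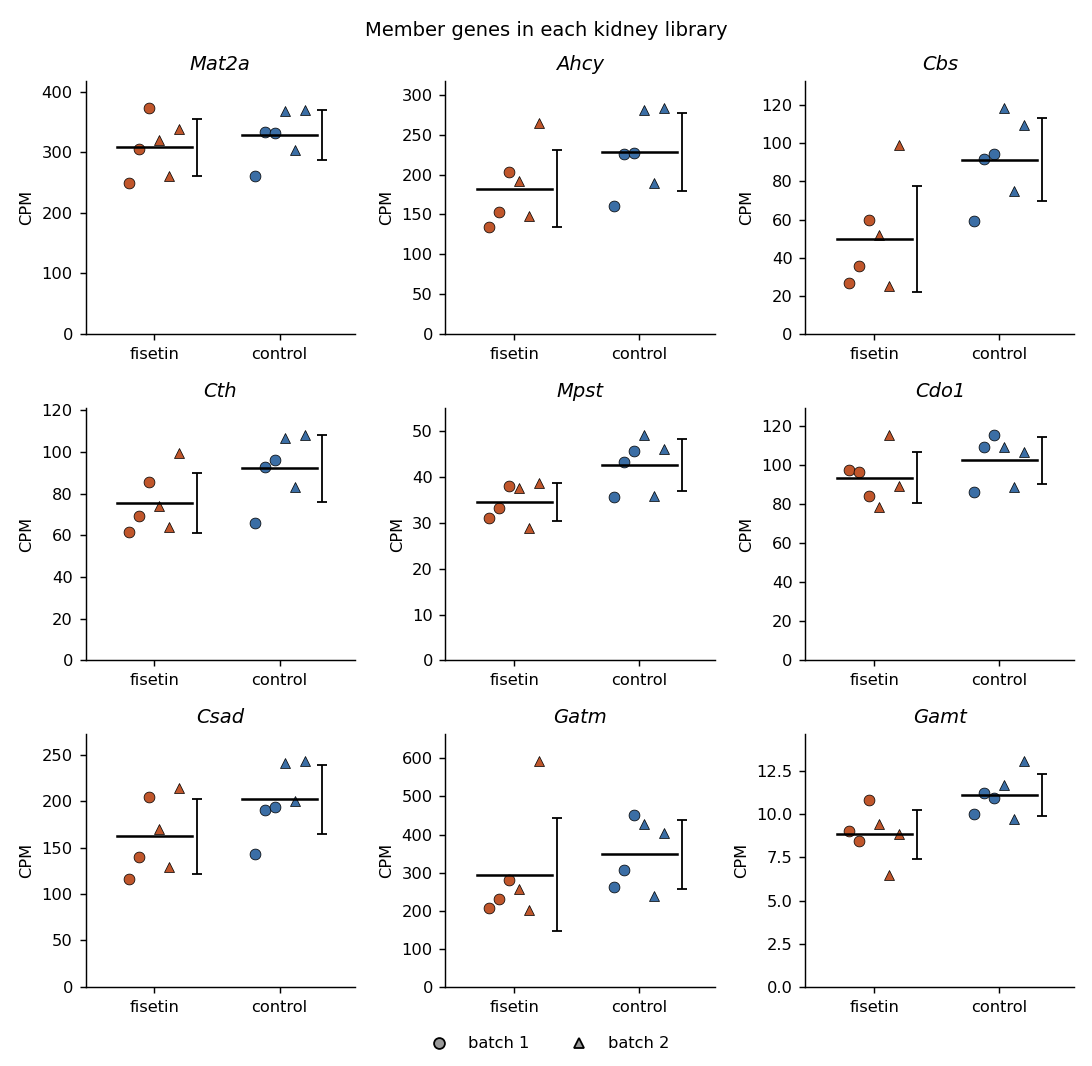
CPM (linear axis from 0) of the 9 genes in each library, fisetin left and control diet right, with circles for batch 1 and triangles for batch 2; horizontal lines are group means and error bars 1 SD (n = 6 each). For Cbs the fisetin libraries run from 25.3 to 98.9 CPM and the controls from 59.0 to 118.4, and for Gatm fisetin 6 stands alone at 592.7 CPM.

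All 9 genes had a fold change below 0, with a median log2 fold change of -0.30, where 49.8% of the 17890 genes tested were below 0 and the median of all was 0.00. With edgeR's quasi-likelihood test, 0 of the 9 and 0 of all genes passed after Benjamini-Hochberg adjustment, a background of 0%, while 14.6% of all genes had an unadjusted p under 0.05 in either direction. At an unadjusted p under 0.05, edgeR marked Cbs, Mpst and Gamt, 3 of 9, all lower, and the same held for 6.34% of all genes in that direction. DESeq2 called 0 of the 9, where it called 0.861% of all genes in either direction and 0.358% lower. Limma-voom with sample quality weights called 6 of the 9, all but Mat2a, Cdo1 and Gatm, all lower, where it called 13.4% of all genes in either direction and 6.9% lower. The CPM ranges of the diets overlapped for each of the 9 genes, and 0.894% of all genes had ranges that did not. Because these values chose the list, nothing about the diet is read from these counts. The direction was below 0 for 9 of 9 with each library left out in turn, with a median between -0.22 without fisetin 5 and -0.36 without fisetin 6. Those fits share all but 1 library with the comparison behind the list, so the constant direction is a description too.

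**Figure D2:**
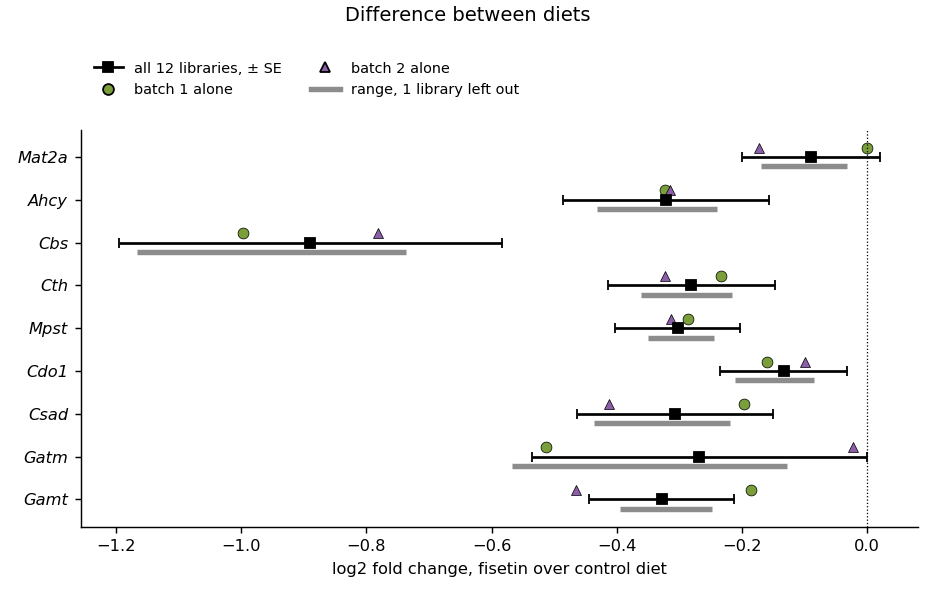
Log2 fold change of fisetin over control diet for each gene: black squares with SE bars use all 12 libraries, green circles batch 1 alone, purple triangles batch 2 alone, and grey bars the range when 1 library is left out. Cbs lies lowest at -0.89, Mat2a nearest to 0 at -0.090, and Gatm has the widest grey bar, from -0.57 to -0.13.

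Beside the difference between diets, the libraries of one diet differed among themselves, and in this the genes moved together. The means of diet and batch were taken out of each gene's log2 CPM, and Pearson correlations of what was left were taken over the 12 libraries as a measure of likeness, with no test. The 12 points share their libraries and scaling, so the correlations are a description. Among the 8 genes other than Cdo1, the 28 pairs had a median correlation of 0.87, with Ahcy and Cth closest at 0.98 and Gatm and Gamt least alike at 0.48. Over all 36 pairs of the 9 genes the median was 0.82, with a lowest value of -0.30. The median correlation of Cbs with all 11457 genes compared was 0.15. Genes outside the 9 reached up to 0.994 with Cbs, so a high correlation is not particular to the 9. Cdo1 kept apart, with correlations between -0.30 with Gamt and 0.12 with Cth. The median of the 28 pairs was 0.90 without fisetin 6 and 0.83 without fisetin 5.

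**Figure D3:**
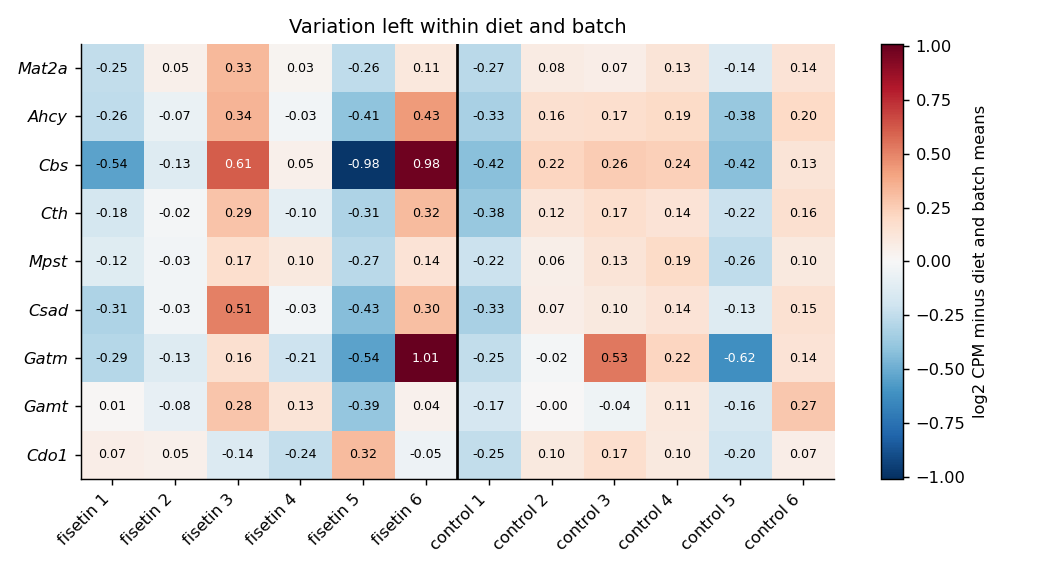
Log2 CPM of each gene in each library after the means of diet and batch were taken out, red above and blue below 0, with the values printed; libraries are in columns, fisetin left of the line and control right of it. In fisetin 5 the value is -0.98 for Cbs and 0.32 for Cdo1, and in fisetin 6 it is 0.98 for Cbs and 1.01 for Gatm.

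The amplitude of this variation differed between the genes. In CPM, the standard deviation was 55.6% of the mean for Cbs with fisetin and 23.9% with the control diet, and for Gatm 50.6% with fisetin and 26.03% with the control diet. For Mpst it was 11.8% with fisetin and 13.2% with the control diet. Cbs and Gatm thus carried the widest spread in the fisetin group, where fisetin 6 was the highest library for both.

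By the same measure, the genes most like Cbs were Folr1, which encodes a folate receptor, at 0.994, D630029K05Rik at 0.993, and Slc12a3, the thiazide-sensitive sodium chloride cotransporter gene of the distal tubule, at 0.993. Nearest to Cth were the electron transfer flavoprotein gene Etfa (0.991), the complex I gene Ndufa10 (0.991) and Fam81a (0.990). For Ahcy they were Aldh1l1, a cytosolic folate enzyme gene (0.992), Pop5 (0.992) and Mccc2 of leucine breakdown (0.991). Mpst was most like P3h2 (0.981), the aldehyde dehydrogenase gene Aldh2 (0.978) and Dcxr (0.974). Mat2a came closest to Cyp2e1, a cytochrome P450 gene (0.993), Lztr1 (0.989) and Pih1d1 (0.976), and Csad to Slc22a30 (0.987), Acsm3 (0.984) and Macrod2 (0.983). Gatm was nearest to Greb1l (0.982), Dnajc6 (0.980) and Acss1 (0.977), and Gamt to the aldose reductase gene Akr1b3 (0.961), Nudt14 (0.960) and Csrp2 (0.949). The list for Cdo1 was of another kind, with Acacb (0.968), which encodes an acetyl-CoA carboxylase, Aifm2 (0.929) and Car3 (0.926), a carbonic anhydrase gene known from fat and muscle.

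Promoter sequence is shown for Cbs, Ahcy and Gatm, as the gene with the largest difference, its closest partner among the 9, and the gene with the single far library. RefSeq windows (GRCm38.p6) were matched for 7 of the 9 genes, and the printed 200 bases run from 250 to 51 bases before the annotated start, on the minus strand, 5′ to 3′. They are chr17:31637256-31637455 for Cbs, chr2:155074548-155074747 for Ahcy and chr2:122611328-122611527 for Gatm. Capitals mark matches on either strand to the E-box CACGTG, to CCAAT and to the GC box GGGCGG.
Cbs: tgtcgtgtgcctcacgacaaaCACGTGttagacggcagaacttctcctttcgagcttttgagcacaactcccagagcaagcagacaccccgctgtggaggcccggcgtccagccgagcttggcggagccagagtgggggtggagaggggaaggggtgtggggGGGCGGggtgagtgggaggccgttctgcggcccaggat
Ahcy: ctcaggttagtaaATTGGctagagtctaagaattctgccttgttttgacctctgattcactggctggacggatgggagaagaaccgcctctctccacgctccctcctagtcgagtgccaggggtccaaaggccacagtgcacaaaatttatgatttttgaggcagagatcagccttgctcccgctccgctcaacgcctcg
Gatm: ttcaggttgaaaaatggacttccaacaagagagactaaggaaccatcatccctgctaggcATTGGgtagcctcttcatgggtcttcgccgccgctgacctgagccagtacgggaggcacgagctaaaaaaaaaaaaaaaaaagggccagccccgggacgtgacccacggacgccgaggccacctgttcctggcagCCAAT

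The Cbs window held 1 E-box, which 4.34% of 32851 windows of this length held, and 1 GC box, which 24.6% held. Ahcy had 1 CCAAT and Gatm 2, a motif in 28.4% of windows. The amino acid response motif TGATGNAA (2.72% of windows), the antioxidant response motif TGACNNNGC (7.66%) and the HNF1 motif (0.277%) had no match in these 3 windows. No motif was thus shared by all of them, and a match is only a run of letters.

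Several cell types had marker sums that were low or high in the same fisetin libraries as most of these genes. Cdo1 was an exception, being highest of the fisetin group in fisetin 5. All 12 proximal tubule markers examined, the transporter genes Slc34a1 and Slc5a2 and the receptor gene Lrp2 among them, had fold changes below 0 and were counted in these kidneys. On the log2 scale they ran from -1.14 ± 0.73 for Slc22a7 to -0.0027 ± 0.085 for Slc4a4, and some were within their error of 0. The summed level of the 12 was 6781 to 15098 CPM (median 9135) with fisetin and 9426 to 15630 CPM (median 12507) with the control diet. Of the fisetin libraries, fisetin 5 and 1 were lowest and fisetin 6 highest, as for Cbs and Ahcy. The 7 leukocyte markers, Ptprc among them, ran the other way, with 7 of 7 above 0 and sums of 301.3 to 708.6 CPM with fisetin and 294.9 to 532 CPM with the control diet. Principal cell, thick ascending limb and distal tubule markers mostly went the way of the proximal tubule. Their sums were also lowest in fisetin 5 and highest in fisetin 6 of the fisetin group. Principal cell markers of the collecting duct, Aqp2 among them, were below 0 in 6 of 6, with sums of 163.9 to 352.9 CPM (median 309.0) with fisetin and 341.8 to 494.4 CPM (median 404.6) with the control diet. Thick ascending limb markers were below 0 in 5 of 5, with sums of 2346 to 4276 CPM with fisetin and 2321 to 4877 CPM with the control diet. Distal and connecting tubule markers were below 0 in 3 of 4 tested, with sums of 495.8 to 1796 CPM with fisetin and 928.8 to 1646 CPM with the control diet. Intercalated cell markers were split, with 3 below and 2 above 0. Their sums were 80.9 to 180.1 CPM with fisetin and 96.6 to 147.4 CPM with the control diet. Outside the tubule, podocyte and endothelium markers were each below 0 in 4 of 5. Intercalated cell, podocyte and endothelium sums were again lowest in fisetin 5 and highest in fisetin 6 of the fisetin group. Fibroblast markers were below 0 in 2 of 5 and injured tubule markers in 2 of 4. The part of these cell types in the differences between diets was not tested.

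The 4 fat markers had sums of 25.9 to 243.2 CPM with fisetin and 25.5 to 223.8 CPM with the control diet, and the 3 that passed the filter had fold changes above 0. Fisetin 5 and control 3 had both the highest fat sums and the highest Cdo1 of their groups, at 115.5 and 115.1 CPM. Control 4 had a fat sum of 61.2 CPM and 109.1 CPM of Cdo1. The 5 liver markers summed to 507.9 to 1417 CPM with fisetin, the highest being fisetin 5, and to 535.2 to 966.5 CPM with the control diet. Apob, which these kidneys also express, made up most of the sum in every library but fisetin 5, with 455.2 to 661.3 CPM in the fisetin group and 478.4 to 909.8 CPM in the control group. Fat and liver both express Cdo1, and their part in its level was not tested. Of the 5 pancreas markers, relevant because pancreas also makes Gatm message, Prss1, Cpa1 and Try4 were at 0 counts in all libraries and Ins2 had at most 1 count. Cela1, an elastase gene, made up the sum, with 15.04 to 42.19 CPM with fisetin and 21.99 to 38.16 CPM with the control diet. Its highest library was fisetin 6, where Gatm was also highest, and the pancreas sum in the other fisetin libraries was at most 21.4 CPM. Its part in the level of Gatm was not tested.

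**Figure D4:**
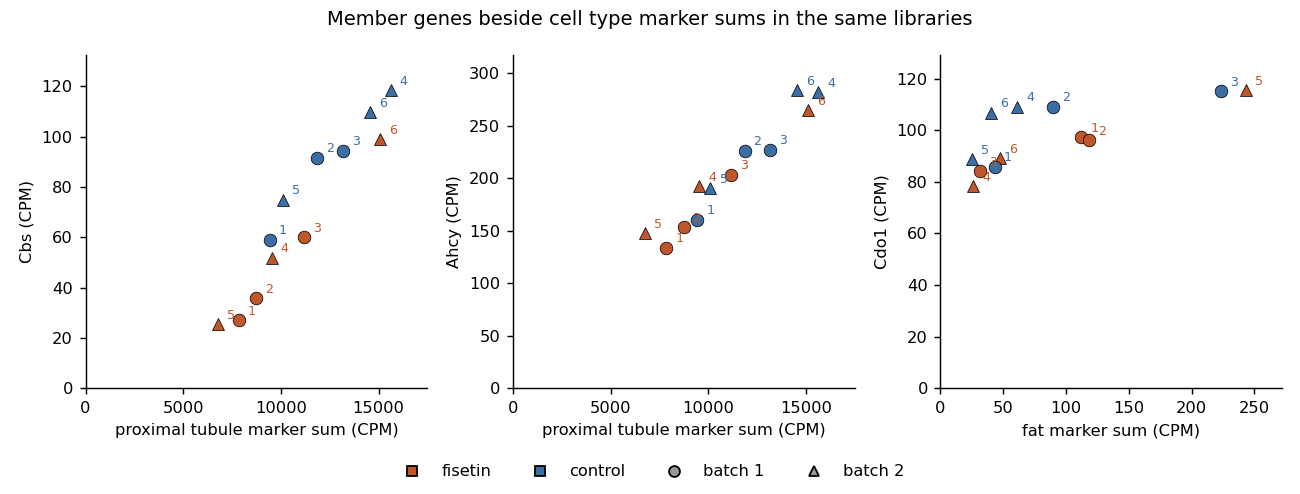
CPM of Cbs and Ahcy against the summed CPM of 12 proximal tubule markers, and of Cdo1 against the summed CPM of 4 fat markers; each point is a library with its number, orange for fisetin and blue for control, circles for batch 1 and triangles for batch 2. Cbs and Ahcy are low where the proximal tubule sum is low, and Cdo1 is highest in fisetin 5 and control 3, the libraries with fat sums of 243.2 and 223.8 CPM.

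Around the 9 genes, 89 further genes of the linked pathways were examined, of which 85 passed the filter. These were tested, and 0 of 85 passed by edgeR with Benjamini-Hochberg adjustment over all genes, where the background was 0%. At an unadjusted p under 0.05 by edgeR, 1 was higher and 10 were lower, where 14.6% of all genes were in either direction and 6.34% lower. DESeq2 called 0, where it called 0.861% of all genes. Limma-voom with quality weights called 1 higher and 25 lower, where it called 13.4% of all genes in either direction and 6.9% lower. Fold changes were above 0 for 19 and below 0 for 66, with a median of -0.12 on the log2 scale, where 49.8% of all genes were below 0. All 12 proximal tubule markers were below 0 as well, and the part of cell types in these directions was not tested.

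Sulfate and cysteine breakdown genes had 12 of 15 fold changes below 0. Slc26a1, a sulfate anion transporter gene, had the smallest p of all 85, with 112.9 ± 26.3 CPM with fisetin and 154.3 ± 18.1 CPM with the control diet (mean ± SD, n = 6 per diet), a log2 fold change of -0.45 ± 0.14 (SE; edgeR adjusted p = 0.281). It was below the control mean in 6 of 6 fisetin libraries. Kyat3, a cysteine conjugate lyase gene (-0.39 ± 0.16), and Papss2, which makes the activated sulfate donor (-0.37 ± 0.16), came next. The most abundant in TPM were Slc13a1, the sodium sulfate cotransporter gene (-0.16 ± 0.15), and Fmo1 (0.049 ± 0.10), which encodes a flavin monooxygenase. Gadl1, a relative of Csad, had at most 2 counts in a library and was not tested. None of the 15 passed by edgeR or DESeq2. Limma-voom with quality weights called 5 lower, Slc26a1, Kyat3 and Papss2 among them, where it called 6.9% of all genes lower.

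Genes supplying betaine, folate carbon units and serine were below 0 in 18 of 22 cases. Gldc, the decarboxylase gene of the glycine cleavage system, was the exception with the smallest p, at 103.5 ± 20.8 CPM with fisetin and 77.9 ± 12.1 CPM with the control diet (mean ± SD, n = 6 per diet), a log2 fold change of 0.41 ± 0.14 (edgeR adjusted p = 0.29) and 5 of 6 fisetin libraries above the control mean. Tyms, the thymidylate synthase gene, was at -0.12 ± 0.041, and Psat1 of serine synthesis at -0.27 ± 0.11. The betaine and sarcosine branch had its most abundant messages in Sardh (-0.32 ± 0.15) and Aldh7a1 (-0.21 ± 0.14). None of these passed by edgeR or DESeq2. Limma-voom with quality weights called 8 of the 22 lower, Sardh among them, where it called 6.9% of all genes lower.

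Cystine uptake and glutathione genes were below 0 in 13 of 15. Ggt1, the brush border enzyme that opens glutathione breakdown, had 500.5 ± 129.6 CPM with fisetin and 648.3 ± 118.3 CPM with the control diet (mean ± SD, n = 6 per diet), with a log2 fold change of -0.37 ± 0.16 (edgeR adjusted p = 0.323). The subunits of the cystine transporter of the proximal tubule were Slc7a9 at -0.33 ± 0.14 and Slc3a1 at -0.29 ± 0.15, and Lap3, a leucine aminopeptidase gene, was at -0.34 ± 0.15. None of the 15 passed by edgeR or DESeq2. Limma-voom with quality weights called 6 lower, Ggt1, Lap3 and Slc7a9 among them, where it called 6.9% of all genes lower. The 1 it called higher was Slc7a11, another cystine transporter gene, at 0.60 ± 0.32 in the edgeR fit.

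In the methionine cycle and methyl transfer list, 11 of 16 tested genes were below 0. Bhmt2, a homocysteine methyltransferase gene (-0.28 ± 0.15), and Mtr, the methionine synthase gene (-0.16 ± 0.084), had the smallest p, followed by Pemt (0.45 ± 0.25), which encodes a phosphatidylethanolamine methyltransferase and was low at 1.57 ± 0.70 CPM with fisetin and 1.13 ± 0.16 CPM with the control diet (mean ± SD, n = 6 per diet). The most abundant were Ahcyl2, a relative of Ahcy (-0.11 ± 0.093), and the adenosine kinase gene Adk (-0.10 ± 0.084). None of the 16 passed by edgeR or DESeq2. Limma-voom with quality weights called 3 lower, Bhmt2 and Mtr among them, where it called 6.9% of all genes lower. Mat1a, the liver form of methionine adenosyltransferase, had 398 counts in fisetin 5 and at most 2 in any of the other 11 libraries, and Bhmt, which uses betaine, had 19.6 CPM in fisetin 5 and 0.922 to 3.46 CPM in the others. These are genes known from the liver, and fisetin 5 is also the library with Alb.

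The list of arginine genes, creatine transport and creatine kinases had 8 of 9 tested fold changes below 0. Ass1, which makes the precursor of arginine, was the most abundant with 1009 ± 492.4 CPM with fisetin and 1356 ± 311.3 CPM with the control diet (mean ± SD, n = 6 per diet), with a log2 fold change of -0.44 ± 0.26 (edgeR adjusted p = 0.422). The creatine transporter gene Slc6a8 was at -0.11 ± 0.089, the mitochondrial creatine kinase gene Ckmt1 at -0.088 ± 0.055 and the ornithine aminotransferase gene Oat at -0.14 ± 0.065. The muscle kinase genes Ckm and Ckmt2 had at most 2 and 0 counts in a library. None of the 9 tested genes passed by edgeR or DESeq2. Limma-voom with quality weights called 3 of them lower, Ass1 among them, where it called 6.9% of all genes lower. Polyamine synthesis draws on decarboxylated S-adenosylmethionine, and the genes of the polyamine list were split evenly with 4 of 8 above 0. Odc1, the ornithine decarboxylase gene, stood at -0.21 ± 0.27, Srm at -0.17 ± 0.10, Paox at 0.21 ± 0.12, Azin1 at 0.047 ± 0.047 and Sat1 at 0.023 ± 0.061.

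**Figure D5:**
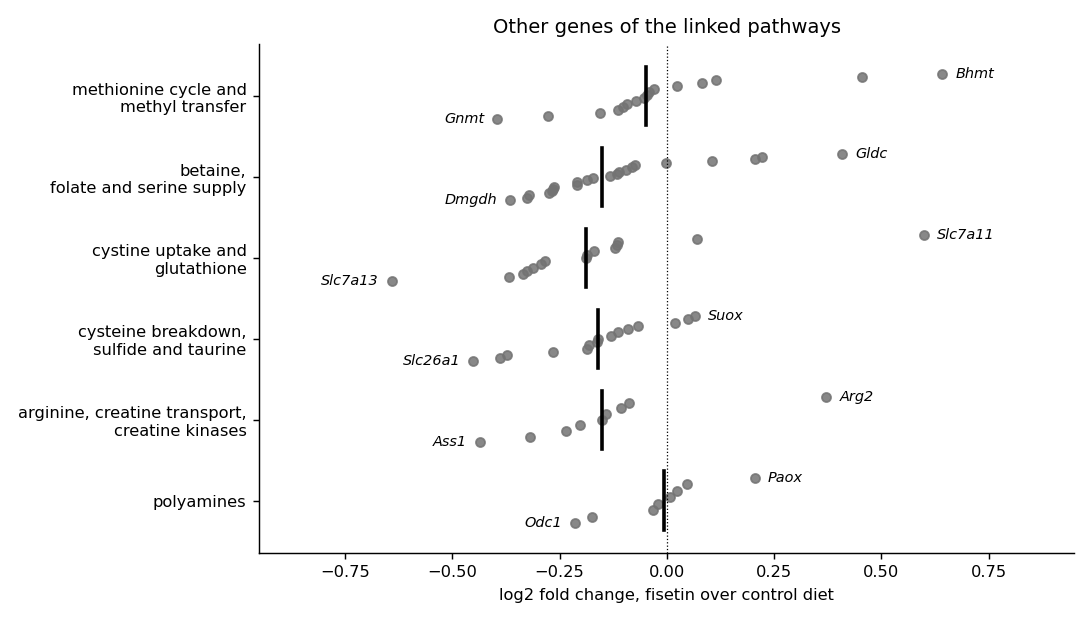
Log2 fold change of fisetin over control diet for the 85 tested genes of the linked pathways, 1 point per gene in 6 lists, with the median of each list as a black bar and the lowest and highest gene named. Medians run from -0.19 for cystine uptake and glutathione to -0.01 for polyamines, and 0 of the 85 genes passed the edgeR test.

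The batches and the interaction of diet with batch were measures that the choice of the genes did not use, and they were tested. For batch 2 over batch 1, edgeR and DESeq2 each called 0 of the 9 genes and 0 of all genes (0%). By edgeR, 0 of the 9 had an unadjusted p under 0.05, where 3.38% of all genes had. The largest batch difference was that of Cbs, at 0.41 ± 0.30 on the log2 scale (edgeR adjusted p = 0.892), and Gatm followed at 0.31 ± 0.27. For the interaction, edgeR called 0 of the 9 and 0% of all genes and DESeq2 0 of the 9 and 0.00559% of all, with 0 of 9 at an unadjusted p under 0.05 where 2.1% of all genes were. That of Gatm was 0.49 ± 0.53 (edgeR adjusted p = 1), so the gap between -0.51 in batch 1 and -0.023 in batch 2 was within its error. Cbs had an interaction of 0.21 ± 0.63, which leaves its diet difference in each batch known only loosely.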

How the data were processed

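The deposited table gave estimated counts, TPM and FPKM for 12 libraries, per the file headers, in 36 value columns that were matched to samples by name, 6 libraries of each diet and 3 of each diet per batch. The submitters' processing notes name GRCm38 and mm10 as builds and the tools fastp, STAR, featureCounts and DESeq2, without versions; annotation and counting settings are not given there. Per the labels' protocols, libraries were made with a KAPA mRNA HyperPrep kit. The deposited counts were rounded, since 13.91% of those above 0 were not whole (tolerance 1e-06). The deposited TPM values served for levels between genes. The deposited FPKM values were not used. Over 66 pairs, the mean squared difference between libraries was at least 6.84 times the variance from counting noise.

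After filterByExpr on diet with a minimum count of 10, 17890 genes were kept, scaled by TMM and tested with edgeR 4.0.16 (R 4.3.3; glmQLFit, robust, with batch and diet; two-sided; Benjamini-Hochberg threshold 0.05). DESeq2 1.42.0 and limma 3.58.1 were alternatives. A standard error is the fold change divided by the root of F. The steps were tested on simulated counts. Positions are from GENCODE M21 on GRCm38. Pathway genes named are the 3 with the smallest p and the 2 highest in TPM per list; others were chosen after their values were seen. The genes, lists and tests were chosen with earlier results of these data known.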

Additional observations from a re-analysis of the deposited data

Results flagged for a closer look

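In 32 groups of 6 libraries examined for a single library far from the rest, 7 had one. Chance gives about 1 in 20 for independent groups of normal spread. These groups share libraries and Alb is part of the liver sum, so the 7 cannot be set against that rate. Gatm in fisetin 6, at 592.7 CPM, was separated from the next fisetin library by 0.803 of the group's range, against a critical value of 0.625. Fisetin 5 stood far above its group in 4 measures that go with liver: the liver marker sum (1417 CPM), Alb (737.2 CPM), Mat1a (23.1 CPM) and Bhmt (19.6 CPM). Without fisetin 5 the log2 fold changes were -0.74 for Cbs, -0.22 for Cth, -0.24 for Ahcy, -0.17 for Gatm and -0.21 for Cdo1. The fat marker sum of control 3 was 223.8 CPM, away from the other controls, and without control 3 Cdo1 stood at -0.093. Mat1a in control 3, at 0.0457 CPM, was a single count where the other controls had 0.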

How the results depend on the processing

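The fold changes of the 9 genes were below 0 in 189 of 189 further values, 21 alternatives a gene, Mat2a in batch 1 being nearest to 0 at -0.0010, and none moved by 1 SD between libraries or more. These values reuse the libraries and the comparison behind the list of genes, so their direction is a description. For some genes the SD exceeded the fold change, as for Gatm (0.49 beside -0.27) and Mat2a (0.21 beside -0.090). For Cbs it did not (0.59 beside -0.89). A move of less than 1 SD can thus be large beside the fold change. The count of genes called over the whole table, 0 by edgeR, was 154 by DESeq2, 2390 by limma-voom with quality weights and 1 in batch 1 alone, and 0 to 70 with 1 library left out, the 70 being without fisetin 6 and 1 without fisetin 4. Of the other pathway genes, 0 were called by edgeR and 26 by limma-voom with quality weights. For the interaction of diet with batch DESeq2 called 1 gene where edgeR called 0. The causes of these shifts were not tested. The median fold change of all genes, 0.00 as reported, was 0.05 under total count scaling and 0.05 on log2(TPM + 1). The median likeness of the pairs was 0.83 to 0.90 with 1 library left out, an alternative added after seeing the data. No paired analysis was possible because the labels give no replicate numbers. Gamt had the fewest counts, from 112 to 244 a library.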
